A study of Sus scrofa with 32 samples.

Results

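Genes of the major histocompatibility complex (MHC) pathways were followed in fetal pig muscle, namely B2M, TAP1, TAP2 and NLRC5 of the class I pathway, and SLA-DRA, CD74 and CIITA of the class II pathway. The members were chosen by name, as the locus of the expression table that carries each symbol, and made up 7 of 30413 loci. Their own symbol was given for 5 of the 7, while SLA-DRA was listed under the human name HLA-DRA, and TAP2 was listed as ENSSSCG00000025593. CD74 shared 1 locus with the ribosomal protein gene RPS14, so its own level could not be read.

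RNA-seq had been run on longissimus dorsi, the main back muscle, of 32 fetuses at gestation day 77. There were 16 crossbred fetuses (Iberian x Large White) and 16 purebred Iberian fetuses, and each genotype had 8 females and 8 males. Every fetus was carried by a pure Iberian sow that had been inseminated with mixed semen of both breeds and was kept on restricted feed, so both genotypes shared the maternal breed and the diet. Genotype had been assigned from a marker in the leptin receptor gene, and fetuses of divergent weight had been picked, but the weight class of each fetus was not used here. The first 4 digits of a fetus name were read as its sow, which no label states. This gave 7 sows, 5 of them with both genotypes. Litter-mates are not independent animals, so the p-values below measure the spread among these fetuses only.

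Class I molecules carry peptides from inside the cell and are built from a variable heavy chain and the constant light chain beta-2 microglobulin, the product of B2M. TAP1 and TAP2 form the transporter that moves these peptides into the endoplasmic reticulum, and NLRC5 is the transactivator that switches class I genes on. Class II molecules carry peptides taken up from outside and are found mainly on macrophages, dendritic cells and B cells. SLA-DRA encodes the alpha chain of the pig DR molecule, CD74 the invariant chain that guards its groove, and CIITA the class II transactivator. Neither transactivator binds DNA itself. Both act through a complex of RFX, CREB and NF-Y proteins assembled on the X and Y boxes of the promoter. Resting muscle fibres carry little MHC, and interferon gamma is the best known inducer of both pathways.

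The sequence before the annotated start is shown for the 4 members in which a match bears on that shared control, or, for B2M, on the interferon response. Each window covers the 250 bases before the RefSeq start in the Sscrofa11.1 build, 5′ to 3′ on the gene's strand, and capitals mark motif matches. SLA-DRA lies at chr7:24825037-24830650 on the forward strand and its window at chr7:24824787-24825036. The CD74 window is chr2:151409925-151410174, reverse strand. The window of the first of the B2M copies is chr1:126844044-126844293, reverse strand. For TAP1 only 30 bases are printed (chr7:25072193-25072222, reverse strand), since the annotated start of PSMB9, which runs the other way, lies 143 bases from that of TAP1 and the stretch falls inside PSMB9.
SLA-DRA: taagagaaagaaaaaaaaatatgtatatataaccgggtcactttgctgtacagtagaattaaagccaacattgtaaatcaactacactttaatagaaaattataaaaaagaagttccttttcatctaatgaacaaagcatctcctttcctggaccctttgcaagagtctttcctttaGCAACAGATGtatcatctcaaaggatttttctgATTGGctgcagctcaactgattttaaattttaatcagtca
CD74: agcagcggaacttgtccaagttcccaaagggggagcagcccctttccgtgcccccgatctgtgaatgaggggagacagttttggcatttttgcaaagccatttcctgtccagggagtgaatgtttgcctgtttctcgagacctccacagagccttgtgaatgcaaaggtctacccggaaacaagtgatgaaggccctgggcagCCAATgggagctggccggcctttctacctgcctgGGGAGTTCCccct
B2M: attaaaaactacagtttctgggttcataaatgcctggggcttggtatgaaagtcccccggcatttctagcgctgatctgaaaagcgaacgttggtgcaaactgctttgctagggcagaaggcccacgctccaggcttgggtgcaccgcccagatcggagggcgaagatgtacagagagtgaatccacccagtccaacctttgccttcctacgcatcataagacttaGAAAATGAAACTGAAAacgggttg
TAP1: tctgcccgGAGACAGATGACGtaagatccc

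In the SLA-DRA window the capitals mark an X1 box core, read as GCAACAGATG, from 73 to 64 bases before the start and a Y box (CCAAT, here on the reverse strand as ATTGG) from 40 to 36 bases before it. The TAP1 stretch holds an X1 box core, read as GAGACAGATG, 225 to 216 bases before the start, overlapped by a CRE core (TGACG) at 217 to 213. A reverse Y box followed in the unprinted part of the TAP1 window, 171 to 167 bases before the start. The search for the X1 core allowed any base at the second, the third and the sixth of its letters. On both strands, the X1 core was found in 2.18%, the CRE core in 19.6% and the Y box in 31.9% of 19556 RefSeq promoters of the same length, and the X1 core and Y box together in 0.624%. Capitals in the CD74 window mark a Y box at 47 to 43 and a kappa B site (GGGANTTCC, in 2.28% of promoters) at 13 to 5 bases before the start. In B2M they mark a pair of overlapping interferon-stimulated response elements (read as GAAAATGAAA and GAAACTGAAA, with any base allowed at the fifth and the sixth letter, in 3.01% of promoters), 24 to 15 and 18 to 9 bases before the start. NLRC5 had a CRE core and a kappa B site, and none of the searched letters, which included the GAS element TTCNNNGAA (6.12% of promoters), occurred in the windows of TAP2, CIITA and the other B2M copy. These matches describe the letters only, and binding was not measured.

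The remaining loci were B2M on chromosome 1 (2 RefSeq copies, chr1:126837721-126844043 and chr1:126865767-126878501), TAP1 at chr7:25062772-25071989, TAP2 at chr7:25045085-25056915, CIITA at chr3:32171706-32230775, NLRC5 at chr6:18933179-19036288 and CD74 at chr2:151402210-151409924. How reads were split between the B2M copies is uncertain. The libraries did not keep the strand, so reads of overlapping genes could not be told apart.

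Values are FPKM, fragments scaled by transcript length and by library size, which allows levels of genes to be set side by side. Over the 32 fetuses the mean level was 45.1 FPKM for SLA-DRA, 14.2 for B2M, 6.23 for TAP1, 3.53 for CIITA, 3.41 for TAP2 and 0.467 for NLRC5. The joint locus of CD74 and RPS14 averaged 1703 FPKM. SLA-DRA exceeded B2M in 32 of 32 fetuses, B2M exceeded TAP1 in 31 and TAP1 exceeded CIITA in 30. CIITA exceeded TAP2 in only 17 of 32 fetuses, so these neighbours in the order did not differ beyond their spread. NLRC5 was the lowest member in every fetus.

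Muscle fibre markers were abundant in every library. Summed over 7 muscle fibre markers with a locus of their own, the level ranged from 7840 to 24700 FPKM in crossbred fetuses and from 6400 to 24100 FPKM in Iberian ones. Macrophage markers were also present (11 genes with their own locus, 66.4 to 244 FPKM summed in crossbred and 69.3 to 376 in Iberian fetuses), while the T cell genes CD3D and CD3E lay at or near 0. Relative depth, read from the steps of low values, ranged from 0.701 to 1.42 with medians of 1.06 in crossbred and 0.915 in Iberian libraries, and 14921 to 16877 loci exceeded 0.5 FPKM. In fetuses 1340F5L (crossbred) and 1410F6L (Iberian), 42.2% and 42.5% of the values were written with more than 6 digits, against at most 0.0197% in any other library. The 3 crossbred fetuses of sow 1340 also stood apart from all others, so results that rest on them are given with and without them.

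The first comparison asks whether the sire breed went with a difference in antigen presentation genes. None of the 7 members passed the test between crossbred and Iberian fetuses by limma on log2(FPKM + 0.5), where a call needed a Benjamini-Hochberg adjusted p no higher than 0.05 and a fold change no smaller than 1.3. Of 16750 loci tested, 227 were called (1.36%), 142 higher and 85 lower in crossbred fetuses, and 134 higher and 125 lower after median-of-ratios rescaling. This fit leaves litter out: 48 loci were called with sow as a block, 53 without the Iberian fetuses 1417F3L, 1404F2L and 1410F5L, 126 without sow 1340 and 144 without sow 1412. At an unadjusted p under 0.05 stood 1 of 7 members, against 17.9% of all loci. The crossbred mean was higher for 3 members and lower for 4, with a median log2 fold change of -0.01, beside 0.03 over all loci tested. A count of 0 of 7 lies near that background share.

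**Figure D1:**
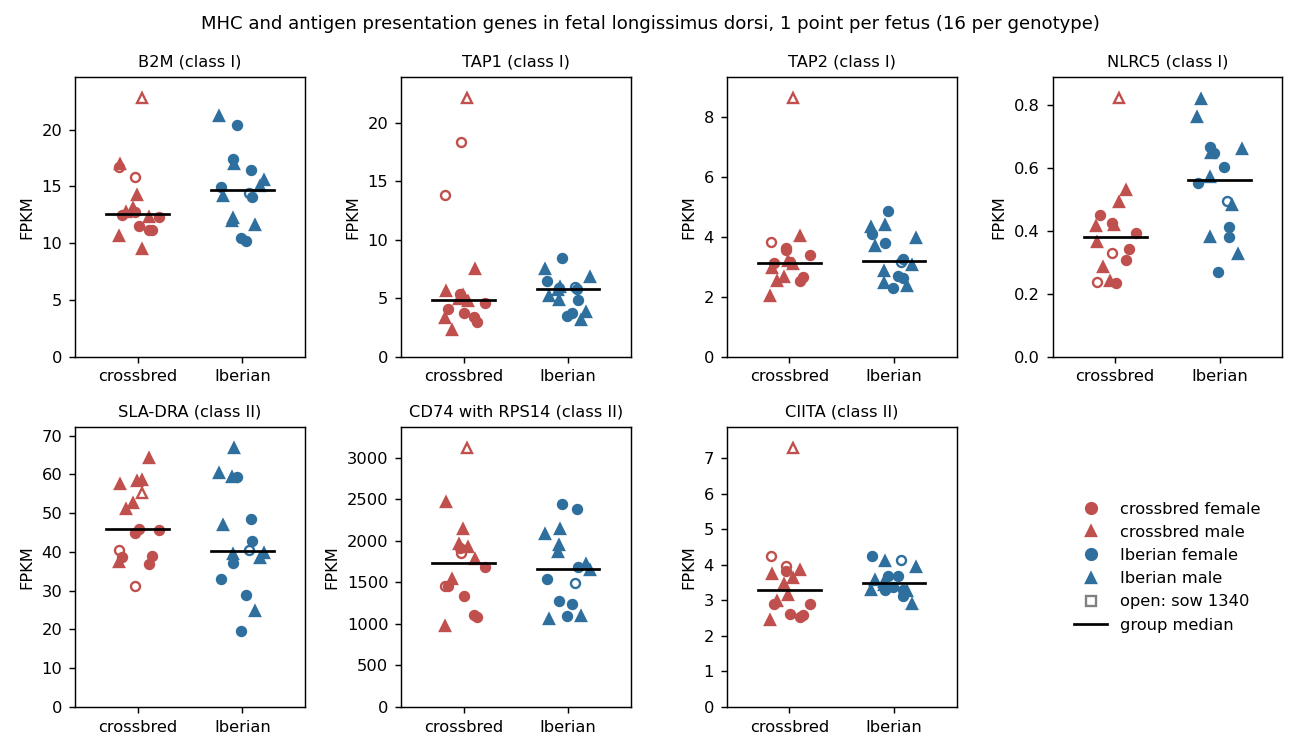
Level in FPKM (y axis, from 0) of each member in crossbred (left) and Iberian (right) fetuses, 1 point per fetus, circles for females, triangles for males, open symbols for sow 1340 and a line at the group median. The groups overlap for every member, and the highest values of TAP1 (22.1, 18.3 and 13.9 FPKM) are the 3 crossbred fetuses of sow 1340.

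Among the class I members, B2M ranged from 9.52 to 22.8 FPKM in crossbred fetuses (median 12.6) and from 10.2 to 21.2 FPKM in Iberian fetuses (median 14.7). The groups overlapped over nearly their whole range, although 12 of 16 crossbred fetuses lay below the Iberian median. The log2 fold change was -0.13 (SE 0.11, limma adjusted p = 0.543; two-sided permutation p = 0.23). Without sow 1340 it was -0.235 (limma p = 0.0241, adjusted p = 0.211).

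TAP1, one chain of the transporter, ranged from 2.23 to 22.1 FPKM in crossbred fetuses (median 4.86) and from 3.12 to 8.44 FPKM in Iberian fetuses (median 5.75). The 3 crossbred fetuses of sow 1340 exceeded every Iberian fetus, while 12 of 16 were below the Iberian median. The log2 fold change was 0.08 (SE 0.23, limma adjusted p = 0.889; permutation p = 0.748). Without sow 1340 it was -0.28 (limma adjusted p = 0.318), so 1 litter set the direction. Within the 5 sows that carried both genotypes, the crossbred mean was lower in 4, and the difference ran from -0.92 to 1.5 with a median of -0.36 on the log2 scale.

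TAP2, the other chain, ranged from 2.04 to 8.65 FPKM in crossbred fetuses (median 3.14) and from 2.30 to 4.87 FPKM in Iberian fetuses (median 3.21). One crossbred fetus, 1340F5L, lay above all others, and the remaining values overlapped. On the log2 scale the fold change was -0.01 (SE 0.12, limma adjusted p = 0.981; permutation p = 0.947), and -0.14 without sow 1340 (limma adjusted p = 0.512).

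NLRC5, the class I transactivator, was the member nearest to a call. It ranged from 0.234 to 0.822 FPKM in crossbred fetuses (median 0.379) and from 0.270 to 0.819 FPKM in Iberian fetuses (median 0.561). All but 1 of the 16 crossbred fetuses lay below the Iberian median, and the exception was 1340F5L, the highest of all 32. Crossbred fetuses averaged 0.393 ± 0.145 FPKM, against 0.542 ± 0.159 FPKM in Iberian ones (SD, n = 16 each). Limma gave a log2 fold change of -0.22 (SE 0.09, p = 0.0186), which did not survive adjustment over all loci (adjusted p = 0.184), and without sow 1340 it was -0.24 (limma adjusted p = 0.158). The permutation p for this gene alone was 0.00833, unadjusted and 1 of 7 such tests. Within sows the crossbred mean was lower in 5 of 5, by -0.44 to -0.06 with a median of -0.18 on the log2 scale. NLRC5 entered the test only through its Iberian mean, since its crossbred mean was under the 0.5 FPKM minimum, and at this level the pseudocount compresses fold changes.

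Among the class II members, SLA-DRA ranged from 31.1 to 64.2 FPKM in crossbred fetuses (median 45.9) and from 19.5 to 66.8 FPKM in Iberian fetuses (median 40.2). The Iberian fetuses held both the highest value and the 3 lowest. On the log2 scale the fold change was 0.18 (SE 0.14, limma adjusted p = 0.507; permutation p = 0.204), and 0.22 without sow 1340 (limma adjusted p = 0.46). The 5 fetuses of sow 1410 were all Iberian and had 19.5 to 42.9 FPKM (mean 29.8). With sow as a block the fitted value turned to -0.14, over the 5 sows with both genotypes alone it was -0.08, and the crossbred mean was lower in 4 of these 5 sows.

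The CD74 and RPS14 locus ranged from 977 to 3117 FPKM in crossbred fetuses (median 1732) and from 1060.0 to 2440.0 FPKM in Iberian fetuses (median 1666). The groups overlapped (log2 fold change 0.04, SE 0.15, limma adjusted p = 0.907; permutation p = 0.765), and without sow 1340 the value was -0.03 (limma adjusted p = 0.953). Across the 32 fetuses its log2 level followed the mean of 32 ribosomal protein genes with Pearson's r = 0.972 and Spearman's rho = 0.963 (permutation p = 1e-05 each, the smallest that 100000 resamples can give), and r was 0.967 without the 2 fetuses farthest from the median. The locus is therefore not read as the invariant chain, and summaries over class II members are given without it, or with and without it. SLA-DRA also followed these ribosomal protein genes (r = 0.657, rho = 0.659, permutation p = 5e-05 and 9e-05, r = 0.675 without the 2 farthest fetuses), as did B2M (r = 0.604, rho = 0.603, permutation p = 0.00028 and 0.00035, r = 0.499 without them) and TAP1 (r = 0.554, rho = 0.565, permutation p = 0.00111 and 0.00092, r = 0.427 without them). All 3 passed adjustment over the 7 members for both measures, with adjusted permutation p of at most 0.00194.

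CIITA ranged from 2.45 to 7.28 FPKM in crossbred fetuses (median 3.30) and from 2.90 to 4.24 FPKM in Iberian fetuses (median 3.48). There were 5 crossbred fetuses below every Iberian fetus and 2 above, so the crossbred values surrounded a narrow Iberian range, with a coefficient of variation of 33.1% against 10.8%. Both crossbred fetuses above the Iberian range came from sow 1340 (7.28 and 4.25 FPKM). The crossbred coefficient of variation was 18.3% without 1340F5L and 16.7% without sow 1340, and the difference in spread was not tested. The log2 fold change of the means was -0.06 (SE 0.09, limma adjusted p = 0.795; permutation p = 0.585). It was -0.12 without 1340F5L (limma adjusted p = 0.399) and -0.16 without sow 1340 (limma p = 0.0278, adjusted p = 0.221).

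**Figure D2:**
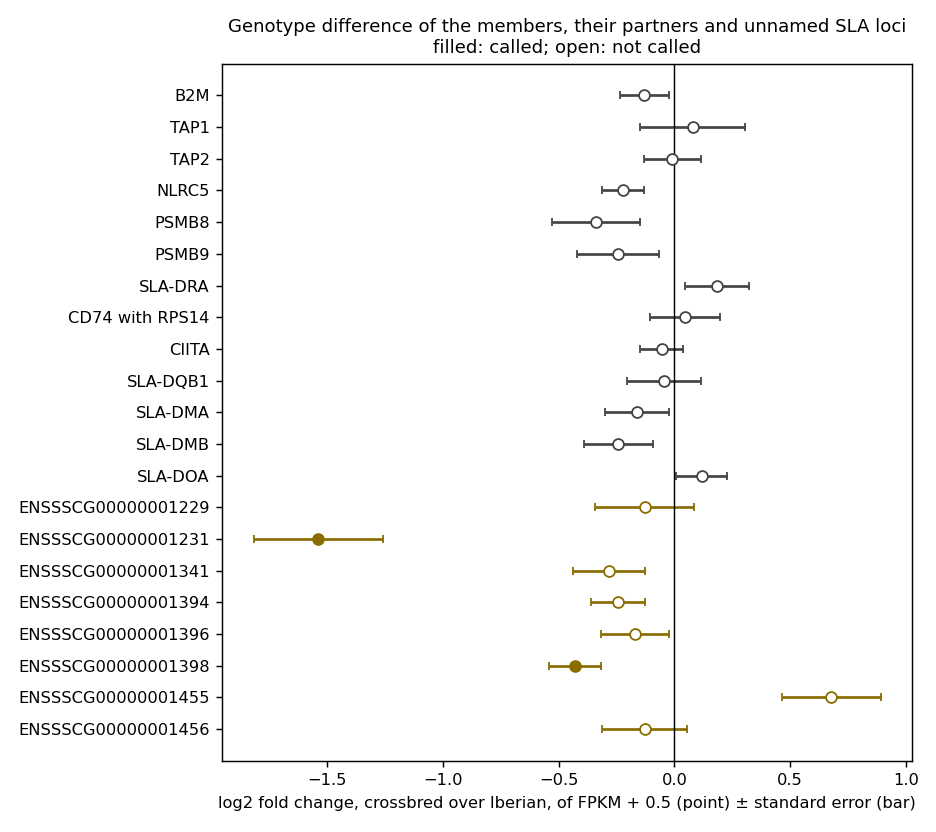
Log2 fold change of FPKM + 0.5, crossbred over Iberian (x axis), for the members, partner genes of the pathways and unnamed loci of the SLA region (y axis), with bars for the standard error (n = 16 per genotype). Points are filled where the locus was called, which holds for ENSSSCG00000001231 at -1.54 and ENSSSCG00000001398 at -0.43 and for none of the members.

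The rest of the pathway was read from lists of known genes, counting only genes with a locus of their own and testing them in the same limma fit. Counts at an unadjusted p under 0.05 are given in parentheses, and 17.9% of all loci stood there. The loading machinery of class I had 0 of 5 genes called (0 of 5), with a median log2 fold change of 0.04. It included the chaperones CALR (170 ± 39.0 and 173 ± 39.9 FPKM in crossbred and Iberian fetuses; SD, n = 16 each) and CANX, and ERAP2, which trims peptides (log2 fold change 0.13). Of the immunoproteasome, which cuts the peptides, 0 of 3 were called (0 of 3), with a median of -0.25. PSMB8 averaged 4.62 ± 2.44 FPKM in crossbred fetuses, against 6.04 ± 2.80 FPKM in Iberian ones (log2 fold change -0.34, limma adjusted p = 0.358), and PSMB9, the neighbour of TAP1, had a log2 fold change of -0.25. With 1.36% of all loci called, a count of 0 on lists of this size lies near the background share.

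Of the other class II chains, 0 of 4 tested were called (0 of 4), with a median log2 fold change of -0.10. SLA-DQB1, the beta chain of the DQ molecule, averaged 29.1 ± 7.45 FPKM in crossbred fetuses, against 31.1 ± 11.8 FPKM in Iberian ones (SD, n = 16 each). SLA-DMA and SLA-DMB, which form the DM molecule that exchanges class II peptides, had log2 fold changes of -0.16 and -0.24. Among genes that prepare class II peptides or act on class II molecules, 0 of 6 were called (1 of 6). IFI30, the lysosomal thiol reductase, averaged 18.9 ± 5.52 FPKM in crossbred fetuses, against 29.9 ± 15.4 FPKM in Iberian ones (log2 fold change -0.56, limma p = 0.00884, adjusted p = 0.137). The RFX, NF-Y and CREB genes of the promoter complex had 0 of 7 called (0 of 7) and a median of 0.01.

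Of the interferon gamma axis, 0 of 10 tested genes were called (2 of 10), with a median log2 fold change of -0.04. Of the type I interferon response, 0 of 8 were called (3 of 8), with a median of -0.11. The largest difference on that list was that of OAS2, an antiviral enzyme, with a mean of 118 ± 101 FPKM in crossbred fetuses, against 223 ± 164 FPKM in Iberian ones (log2 fold change -1.97, limma adjusted p = 0.211). The costimulatory genes CD80, CD86 and CD40 had 0 of 3 called (0 of 3). The shares over all loci were 1.36% called and 17.9% at an unadjusted p under 0.05.

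The class I heavy chains had few usable names in the table. Of 12 heavy chain genes looked for, 4 matched, 3 of them merged with a neighbour. In the SLA region, the pig MHC on chromosome 7, 8 loci carried only an Ensembl identifier, and their values were therefore described as well. They were chosen after the table had been seen. Of these 8, 7 had a negative log2 fold change and 2 were called lower in crossbred fetuses, none higher (background over all loci, 1.36% called in either direction). At an unadjusted p under 0.05 stood 4 of 8, among them ENSSSCG00000001455 with a positive value, against 17.9% of all loci. The median log2 fold change was -0.21, beside 0.03 over all loci tested. Some of these loci share a stretch of related genes, so their directions are not separate observations.

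ENSSSCG00000001231 lay in a stretch (chr7:22823840-23047651) that in RefSeq holds the classical class I genes SLA-1, SLA-2 and SLA-3 with SLA-4, SLA-5 and SLA-11. The stretch also holds TRIM39, LOC100515902, LOC100513601 and LOC110261491. ENSSSCG00000001231 ranged from 0 to 2.71 FPKM in crossbred fetuses (median 0.277, listed at 0 in 2 fetuses) and from 0.357 to 6.96 FPKM in Iberian fetuses (median 2.15). Of the crossbred fetuses, 9 lay below every Iberian fetus and 15 of 16 below the Iberian median. The log2 fold change was -1.54 (SE 0.28, limma adjusted p = 0.00344), and the locus was called under each of 13 alternatives, at -2.36 to -1.15 with adjusted p from 8.06e-05 to 0.0192. Reads had been aligned to Sscrofa11.1, and none of the 13 alternatives varied the alignment. How far the alleles of each breed match that genome, here and at the other SLA loci, was not tested.

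Within sows this locus was lower in crossbred fetuses in 4 of 5 (by -2.45 to -1.96 on the log2 scale) and higher in sow 1340 (0.64). In that litter the 3 crossbred fetuses had 2.71, 1.25 and 2.00 FPKM and the Iberian fetus had 1.05 FPKM. The heavy chain genes are near-identical copies, so which of them the reads came from is uncertain, and the locus was not assigned to any gene of the stretch. The other loci of the same stretch were not called: ENSSSCG00000001341 ranged from 27.8 to 76.9 FPKM in crossbred fetuses and from 26.6 to 88.4 FPKM in Iberian ones (log2 fold change -0.28, limma adjusted p = 0.35), and ENSSSCG00000001229 had a log2 fold change of -0.13.

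ENSSSCG00000001398 lay in the stretch of the non-classical class I genes SLA-6, SLA-7 and SLA-8 (chr7:23622265-23649382). It ranged from 3.75 to 8.94 FPKM in crossbred fetuses (median 5.55) and from 4.84 to 13.8 FPKM in Iberian fetuses (median 7.95). Below the Iberian median lay 15 of 16 crossbred fetuses. Limma gave a log2 fold change of -0.43 (SE 0.11, adjusted p = 0.0457), lower in 5 of 5 sows by -1.02 to -0.25. The call was lost under 5 of 13 alternatives, which were leaving out sow 1340 (limma adjusted p = 0.0865), the same with sow as a block (0.0665), leaving out 1340F5L alone (0.0625), leaving out the Iberian fetuses 1417F3L, 1404F2L and 1410F5L (0.234), and applying no filter (0.0549). Another locus of the same stretch, ENSSSCG00000001396, was not called (log2 fold change -0.17, limma adjusted p = 0.572). It was lower in crossbred fetuses in 4 of 5 sows and higher in sow 1340 (0.59).

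**Figure D3:**
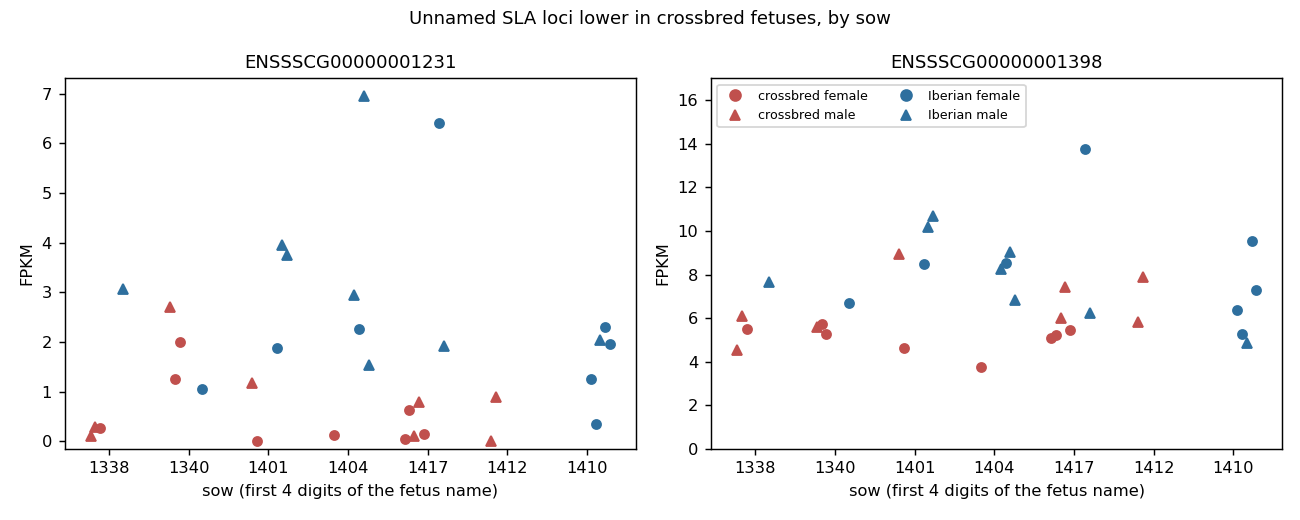
Level in FPKM (y axis) of ENSSSCG00000001231 (left) and ENSSSCG00000001398 (right) in every fetus by sow (x axis), crossbred in red left of Iberian in blue, circles for females and triangles for males. For ENSSSCG00000001231 the crossbred fetuses of sow 1340 (1.25 to 2.71 FPKM) lie above their Iberian litter-mate (1.05 FPKM), unlike those of the other 4 sows with both genotypes.

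On the class II side of the region, ENSSSCG00000001455 lay in the stretch that holds SLA-DRB1 (chr7:24868655-24914037), the usual partner chain of SLA-DRA. It ranged from 4.43 to 26.9 FPKM in crossbred fetuses (median 9.70) and from 2.85 to 12.4 FPKM in Iberian fetuses (median 6.52). The Iberian median was exceeded by 14 of 16 crossbred fetuses, yet the locus was not called (log2 fold change 0.68, SE 0.21, limma adjusted p = 0.0925), and with sow as a block the value was -0.03.

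Setting the classes against each other, the mean log2(FPKM + 0.5) of SLA-DRA and CIITA exceeded that of the 4 class I members by 1.72 ± 0.29 in crossbred fetuses and 1.59 ± 0.184 in Iberian ones (SD, n = 16 each). These means rest on chosen members and are given without a test. The class I members hold no heavy chain and include NLRC5 at 0.467 FPKM, so the size of the gap reflects that choice. ENSSSCG00000001341 averaged 47.8 FPKM, against 45.1 FPKM for SLA-DRA. It lay in the stretch of the classical class I genes but was not assigned to any of them. The gap ran from 1.06 to 2.14 in crossbred fetuses and from 1.28 to 2.04 in Iberian ones, so the groups overlapped. With the CD74 and RPS14 locus included the gap was 4.04 ± 0.28 in crossbred fetuses and 3.91 ± 0.211 in Iberian ones, most of it from that locus. By sow, and without the locus, the gap was narrowest in sow 1340 (mean 1.34, class I mean 2.55) and widest in sow 1412 (1.95, 2 crossbred fetuses). The class I mean was 2.03 ± 0.398 in crossbred fetuses and 2.1 ± 0.265 in Iberian ones. The crossbred minus Iberian difference of the gap without the locus was 0.135, and 0.256 when sow 1340 was left out.

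Sow 1340 was described further because its 3 crossbred fetuses held the 3 highest TAP1 values. They had 22.1, 13.9 and 18.3 FPKM, while their Iberian litter-mate had 5.95 FPKM and the highest of the other 28 fetuses had 8.44 FPKM. The same 3 fetuses were above all other 29 fetuses for IRF1, an interferon-induced transcription factor (7.96, 10.4 and 7.44 FPKM against at most 4.71), for the chemokine CXCL10 (3.86, 5.79 and 8.91 against at most 0.606) and for the kinase JAK1 (81.7, 69.8 and 92.0 against at most 49.2). These were 3 of 10 tested genes of the interferon gamma axis. Over all loci, 1318 of 16750 (7.87%) had all 3 of these fetuses above the other 29, while the equally sized crossbred trio of sow 1338 gave 22 (0.131%) and the Iberian trio of sow 1401 gave 3 (0.0179%).

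Of the 7 members and the 8 unnamed loci of the SLA region, TAP1 alone had this pattern. The trio was picked by its TAP1 values, so that result was fixed in advance. The counts over other genes rest on the same pick, while the trios of sows 1338 and 1401 were not picked by a value. IFNG, the cytokine itself, was at 0 in all 4 fetuses of sow 1340 and at most 0.00958 FPKM elsewhere. XCR1, a receptor of cross-presenting dendritic cells, had 19.3, 12.4 and 18.6 FPKM in the trio, 2.19 FPKM in the litter-mate and at most 3.29 FPKM in the other 28. It was the only gene of the marker lists called between genotypes (5.00 ± 6.01 and 1.37 ± 0.810 FPKM in crossbred and Iberian fetuses, log2 fold change 1.19, SE 0.31, limma adjusted p = 0.0447), and without sow 1340 the call was lost (log2 fold change 0.75, adjusted p = 0.0731), as under 9 of 13 alternatives in all. CLEC9A, another marker of these cells, was at a median of 0 in both genotypes.

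Within the trio, 1340F5L held the highest value of all 32 fetuses in B2M (22.8 FPKM), TAP2 (8.65), CIITA (7.28) and NLRC5 (0.822) as well. Its litter-mates 1340F8L and 1340F9L had 0.238 and 0.329 FPKM of NLRC5, so the trio did not move together in the transactivator. Summed erythroid markers were also highest in 1340F5L, at 3300 FPKM, against a crossbred median of 333 FPKM. The part of blood cells and of the library's deviating number format in its values was not tested.

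The second comparison set females against males within each genotype. In crossbred fetuses 0 of 6 tested members were called by limma (22 of 16843 loci, 0.131%), and 1 of 6 had an unadjusted p under 0.05, against 17.1% of all loci. In Iberian fetuses 0 of 7 were called (19 of 16414 loci, 0.116%), and none had an unadjusted p under 0.05, against 2.19% of loci. When the sex effects of both genotypes were set against each other, 0 of 7 members and 0 of 17345 loci were called (0.0%), with 0 of 7 members and 4.9% of loci at an unadjusted p under 0.05. NLRC5 was below the minimum in both sexes of crossbred fetuses and was not tested there.

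SLA-DRA was the member with the clearest separation of the sexes. In crossbred fetuses it ranged from 31.1 to 45.9 FPKM in females (median 39.6) and from 37.3 to 64.2 FPKM in males (median 56.3). Every female was exceeded by 7 of 8 males. The means were 40.3 ± 5.14 and 54.3 ± 7.98 FPKM in females and males (SD, n = 8 each; exact two-sided permutation p = 0.00249, unadjusted and 1 of 14 such tests). Limma gave a log2 fold change of -0.42 (SE 0.18, p = 0.0247), which was not called after adjustment over all loci (adjusted p = 0.277). The value was -0.359 without sow 1340 (limma p = 0.0948), -0.405 with sow as a block (limma p = 0.0177) and -0.349 with both (limma p = 0.0716). Within sows, crossbred females were lower in 4 of 4, by -0.16, -0.63, -0.59 and -0.42 on the log2 scale in sows 1338, 1340, 1401 and 1417.

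In Iberian fetuses SLA-DRA ranged from 19.5 to 59.3 FPKM in females (median 38.8) and from 24.8 to 66.8 FPKM in males (median 43.3), with wide overlap. The log2 fold change was -0.28 (SE 0.18, limma adjusted p = 1.00; exact permutation p = 0.251). Within the 4 sows that had Iberian fetuses of both sexes the difference took both signs (-0.01, -0.33, 0.26 and 0.34). The sex effect was not shown to differ between genotypes (difference of log2 fold changes -0.14, SE 0.25, limma adjusted p = 0.898).

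**Figure D4:**
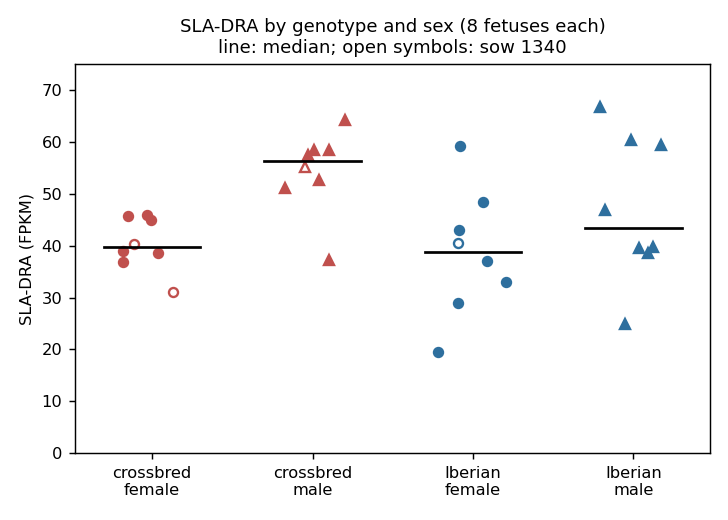
SLA-DRA in FPKM (y axis, from 0) by genotype and sex, 8 fetuses per group, 1 point each with a line at the median and open symbols for sow 1340. Crossbred females (31.1 to 45.9 FPKM) lie below 7 of the 8 crossbred males, while Iberian females and males overlap.

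Some other class II genes had values on the same side in crossbred fetuses, without a call, and some did not. Of the class II loading list, 4 of 6 tested genes had lower and 2 had higher means in females. The promoter complex had 3 lower and 4 higher, with a median log2 fold change of 0.22 and 0 called. Of its genes, 6 of 7 had an unadjusted p under 0.05, against 17.1% of all loci. All 4 tested class II chains had lower means in females (2 of 4 at an unadjusted p under 0.05, median log2 fold change -0.41, beside -0.04 over all loci). SLA-DMA had a log2 fold change of -0.49 (limma p = 0.0103, adjusted p = 0.277) and SLA-DMB of -0.47 (limma p = 0.0242, adjusted p = 0.277). CIITA had a log2 fold change of -0.19 (limma adjusted p = 0.421). The CD74 and RPS14 locus, which is not read as a class II gene here, had -0.38 (limma adjusted p = 0.324, exact permutation p = 0.0864). The class I members had log2 fold changes of -0.08 (B2M), 0.02 (TAP1) and -0.04 (TAP2). Other class I genes also had lower means in crossbred females, namely PSME2 (-0.44, limma p = 0.0159, adjusted p = 0.277), PSMB9 (-0.43, adjusted p = 0.343) and PSMB8 (-0.29, adjusted p = 0.565). For ENSSSCG00000001398 the log2 fold change was -0.32 (limma adjusted p = 0.293), and 6 of 8 crossbred males exceeded every female. Lower female means were thus not limited to class II genes. Muscle fibre markers also had lower means in crossbred females, in 7 of 7 genes with a median of -0.41 (0 called by limma, 3 at an unadjusted p under 0.05). In Iberian females 7 of 7 were lower as well, with a median of -0.4 (0 at an unadjusted p under 0.05). Across the 32 fetuses their mean log2 level had r = 0.359 and rho = 0.532 with SLA-DRA (adjusted permutation p = 0.0734 and 0.00432 over 56 relations). That r was 0.788 in crossbred and 0.0935 in Iberian fetuses. The part of muscle fibre markers in the class II values was not tested.

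Across the 32 fetuses the members varied together to different degrees. Of 21 pairs, 16 had a Benjamini-Hochberg adjusted permutation p of at most 0.05 for Pearson's r on log2 values and 15 for Spearman's rho. Without the pairs of the CD74 and RPS14 locus these counts were 11 and 10 of 15. Pearson's r then had a median of 0.66 within class I (6 pairs) and 0.444 between the classes (8 pairs), and the only pair within class II, SLA-DRA with CIITA, had 0.183. With that locus the median was 0.549 within class II (3 pairs) and 0.516 between the classes (12 pairs). The order of these medians was not tested.

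The pair with the highest r joined the classes. TAP1 and CIITA had r = 0.778 and rho = 0.763 (permutation p = 1e-05 each, adjusted p = 7e-05), and r was 0.693 without the 2 fetuses farthest from the median of TAP1. It was 0.853 in crossbred and 0.417 in Iberian fetuses, 0.66 without sow 1340 and 0.649 after centring on the sow. TAP1 and TAP2, the chains of 1 transporter, had r = 0.776 and rho = 0.786 (permutation p = 1e-05 each), with 0.802 in crossbred and 0.793 in Iberian fetuses, and 0.732 without the 2 farthest fetuses.

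SLA-DRA and its transactivator had a low r over all fetuses. With CIITA it had r = 0.183 (permutation p = 0.31) and rho = 0.209 (permutation p = 0.252), the lowest r of the 21 pairs. After centring on the sow, r was 0.579, and 0.516 when sow 1340 was also left out. With the CD74 and RPS14 locus SLA-DRA had r = 0.668 and rho = 0.693 (permutation p = 3e-05 and 2e-05), and r was 0.609 without the 2 farthest fetuses, beside its r of 0.657 with the ribosomal protein genes. B2M and CIITA had r = 0.549 over all fetuses, with 0.807 in crossbred and 0.03 in Iberian fetuses, where CIITA spanned little, and 0.339 without sow 1340.

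**Figure D5:**
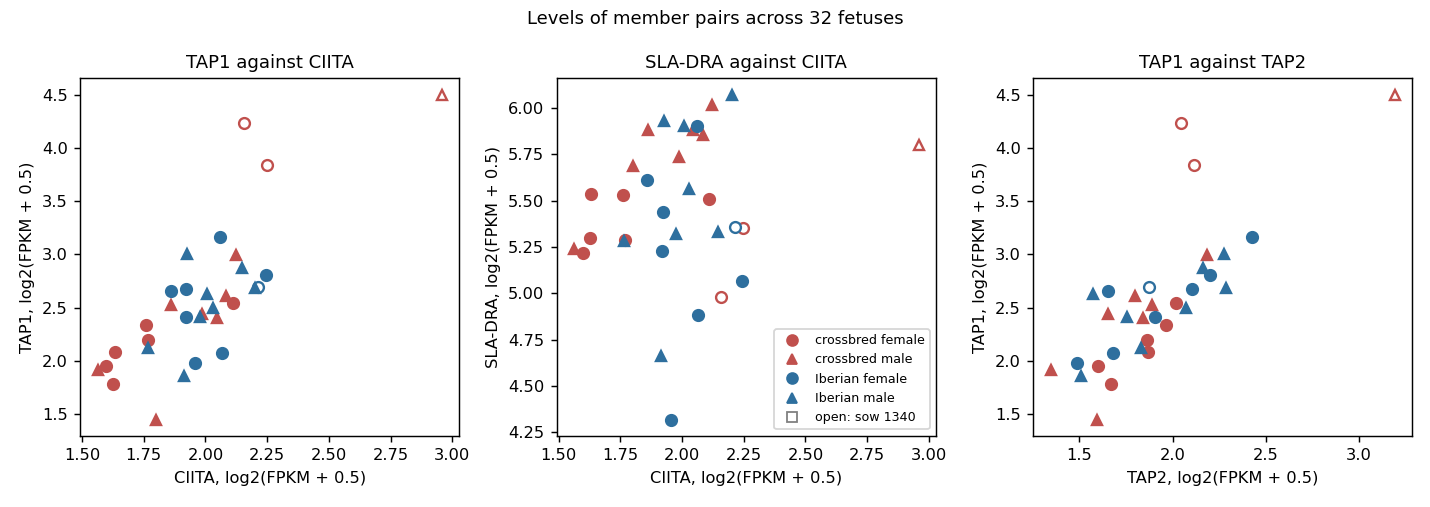
Levels as log2(FPKM + 0.5) of TAP1 against CIITA, SLA-DRA against CIITA and TAP1 against TAP2, 1 point per fetus (32), crossbred in red and Iberian in blue, circles for females and triangles for males, open for sow 1340. TAP1 follows CIITA (r = 0.778) and TAP2 (r = 0.776), while SLA-DRA against CIITA has r = 0.183 over all fetuses and 0.579 after centring on the sow.

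Over the 9760 symbols with a locus of their own, the 5 with the pattern most like SLA-DRA by Pearson's r across the 32 fetuses were SLA-DOA (listed as HLA-DOA, 0.859) and SLA-DQB1 (0.844), both class II chains, then EMG1 (0.835), PDLIM1 (0.823) and PNP (0.816). For B2M they were TMEM176B (0.86), the immunoproteasome subunit PSMB8 (0.855), NRIP3 (0.843), STAT6 (0.835) and ANGPTL4 (0.831).

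Markers of other cell types moved with the members, and in these bulk samples fewer cells of a type and less RNA per cell cannot be told apart. The mean log2 level of the 11 macrophage markers had r = 0.848 with TAP1 (rho = 0.897, adjusted permutation p = 8e-05 each over 56 relations), 0.824 with B2M, 0.734 with TAP2 and 0.626 with CIITA. Without sow 1340 the value for TAP1 was 0.837, and without the 2 farthest fetuses it was 0.848. With SLA-DRA the macrophage markers had r = 0.334 (rho = 0.314, permutation p = 0.0627 and 0.0806). That r was 0.496 without sow 1340, -0.00235 in crossbred fetuses and 0.677 in Iberian ones. The relations with TAP1, B2M and TAP2 were not limited to the macrophage list. The 6 T and NK cell markers, at a summed level of 2.19 to 17.0 FPKM in crossbred fetuses and 2.4 to 17.2 FPKM in Iberian ones, had r = 0.831 with TAP1 (rho = 0.868), 0.791 with B2M (rho = 0.777) and 0.744 with TAP2 (rho = 0.786), each with an adjusted permutation p of 8e-05. Of these 6, only NKG7 and PTPRC had a mean over 0.5 FPKM in each genotype. A relation of T and NK cells apart from macrophages was therefore not shown. The 5 erythroid markers had r = 0.662 with B2M, 0.635 with TAP1 and 0.632 with CIITA, and without sow 1340 these were 0.548, 0.467 and 0.267. The 5 dendritic cell markers had r = 0.723 with TAP1 (rho = 0.235), which was -0.11 without sow 1340 and so rested on that litter. The 8 endothelial markers had r = 0.675 with SLA-DRA (rho = 0.607, adjusted permutation p = 0.00014 and 0.00116), and 0.545 without the 2 farthest fetuses. They also had r = 0.45 with TAP1 (rho = 0.716), 0.457 with TAP2 (rho = 0.648) and 0.474 with B2M (rho = 0.505). Without sow 1340, r was 0.821, 0.743 and 0.592 in that order, and 0.75 with SLA-DRA.

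The macrophage markers themselves were not called between genotypes (0 of 11 by limma, 2 of 11 at an unadjusted p under 0.05, median log2 fold change -0.16), with AIF1 at -0.51 (limma adjusted p = 0.108) and MRC1 at -0.42 (limma adjusted p = 0.191). Their summed level had a median of 125 FPKM in crossbred fetuses, against 140 FPKM in Iberian ones, and its highest value, 376 FPKM, was that of the Iberian fetus 1417F3L. Adipocyte markers had lower means in crossbred fetuses in 7 of 7 genes (0 called by limma, 6 at an unadjusted p under 0.05, median -0.95). Over all fetuses their mean log2 level had r = 0.575 with B2M, 0.48 with TAP2, 0.475 with NLRC5 and 0.165 with SLA-DRA. In crossbred fetuses these values were 0.266, 0.185, 0.0446 and -0.0991, against 0.73, 0.839, 0.536 and 0.401 in Iberian ones. Over all loci, 1.36% were called and 17.9% had an unadjusted p under 0.05. The part of these cell types in the members' values was not tested.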

How the data were processed

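RNA-seq libraries of 32 fetal longissimus dorsi samples were analysed from the FPKM table deposited by the authors. Per the labels and the submitters' processing notes, the authors trimmed reads with Trim Galore, aligned them to Sscrofa11.1 with TopHat2 2.1.0 and Bowtie2 2.2.7.0, and made FPKM values with Cufflinks 2.2.1 and Cuffdiff. Read counts were not analysed here, so no counting intervals are given; relative depth (0.701 to 1.42) came from steps between low values, for 98.2% of 496 library pairs within tolerance. The annotation file repeated columns of the table and was not used.

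Values were tested with limma 3.58.1 (R 4.3.3; trend) on log2(FPKM + 0.5), which understates changes of low genes, keeping loci whose mean exceeded 0.5 FPKM in either compared group. Sex was tested in 1 fit of 4 groups. Permutation tests of single values used 100000 resamples for 16 against 16 and all 12870 splits for 8 against 8 (Python 3.11.15, scipy 1.17.1). The statistics were tested on simulated data. For the limma genotype fit these data were independent values without litters, so that check does not cover litter effects. Members, lists and the SLA loci were chosen with earlier results of these data known. Named genes are the members, and of each list those called, the 3 with the smallest genotype p and the 3 with the highest mean, summarised where many, plus the 5 symbols most like SLA-DRA and B2M. Of 149 list genes, 134 matched and 111 had their own locus. Motifs were searched in RefSeq sequence of Sscrofa11.1. The alternatives tried were a pseudocount of 0.1 or 1, a minimum of 0 or 1 FPKM, rescaling, sow as a block, sex as a covariate, and fetuses or litters left out; those without sow 1340 plus a block, without sow 1412 and without 1340F5L were chosen after seeing the data. The values of a gene on these lists were left out and are not reported here.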

Additional observations from a re-analysis of the deposited data

Results flagged for a closer look

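Among 60 sets of 8 fetuses of 1 genotype and sex checked for the members and the unnamed SLA loci, 7 had an extreme fetus whose gap to the next exceeded Dixon's critical share of the range, where chance alone gives about 1 in 20. In crossbred males, 1340F5L was far above the next fetus in TAP1 (22.1 FPKM, next 7.46), TAP2 (8.65, next 4.04), CIITA (7.28, next 3.86) and ENSSSCG00000001231 (2.71, next 1.18). In Iberian females, 1417F3L was far above the next in ENSSSCG00000001229 (29.1 FPKM, next 14.9) and ENSSSCG00000001231 (6.41, next 2.30). In Iberian males, 1404F5L was highest in ENSSSCG00000001231 (6.96 FPKM, next 3.95).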

How the results depend on the processing

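No member was called in any of 232 member results under the alternatives (limma, smallest adjusted p 0.115), and 36 changed sign. The count of 227 loci called between genotypes was 48 with the sow as replicate block (40 of them shared), 53 without Iberian fetuses 1417F3L, 1404F2L and 1410F5L, 126 without sow 1340, 30 without it and with the block, and 144 without sow 1412. The counts for sex and for its interaction stayed within 1.5 times under the alternatives run. The sow block rests on fetus names, not on a label, and changed no call of a member. The cause of the sign changes was not tested.

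For genotype, TAP1 turned to -0.199 with the block, -0.276 without sow 1340, -0.505 with both, -0.0493 over sows with both genotypes and -0.0474 without 1340F5L. SLA-DRA turned to -0.135 with the block, -0.162 with the block and without sow 1340, and -0.0758 over sows with both genotypes. The CD74 locus turned to -0.169 with the block, -0.0305 without sow 1340, -0.279 with both, -0.15 over sows with both genotypes, -0.0133 without sow 1412 and -0.0158 without 1340F5L. TAP2 turned to 0.0641 without the 3 Iberian fetuses and 0.0177 without sow 1412. ENSSSCG00000001455 turned to -0.0333 with the block and -0.196 with the block and without sow 1340.

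For sex in crossbred fetuses, B2M turned to 0.00331 after rescaling and 0.0267 without 1340F5L, TAP2 to 0.0289 after rescaling, 0.0719 without sow 1340 and 0.135 without 1340F5L, and TAP1 to -0.235 with the block, -0.184 without sow 1340, -0.204 with both and -0.00939 without sow 1412. For sex in Iberian fetuses, B2M turned to 0.0164 after rescaling, 0.0745 with the block and 0.192 with the block and without sow 1340, and TAP2 to 0.00703 and 0.0795 under the first and last of these. TAP1 turned to -0.0902 with the block and -0.148 without the 3 Iberian fetuses. With the block and then also without sow 1340, the CD74 locus turned to 0.0279 and 0.148 and CIITA to -0.0998 and -0.0368.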
